A study of Mus musculus with 16 samples.

Results

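Cbln4 and Lrp11 are 2 genes that stood higher in embryoid bodies lacking the repressor REST than in control embryoid bodies by day 9 of differentiation. They were chosen on the knockout minus control differences of these same arrays, as genes whose difference seemed to arise late, and for that reason those differences are described here without a test. The array named 16593 genes, and each of these 2 had 1 probe among the 25697 probes of the array table, and both probes were followed on all 16 arrays. Tests are given for other genes only. Lateness is part of how the genes were chosen, and Lrp11 goes against it, since its arrays already stood apart by genotype at day 0.

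The samples were mouse embryonic stem cells, in 8 groups of 2 Illumina bead arrays each: REST -/- (knockout) cells at days 0, 3, 6 and 9, and REST +/+ (control) cells at the same days. Day 0 cells were undifferentiated and grown without feeders in serum with leukemia inhibitory factor. Later days were embryoid bodies, aggregates begun as hanging drops without that factor and then grown in suspension, in which early germ layers form. Array numbers within a group come from the labels, which do not say that the arrays came from separate cultures, so the tests rest on array-to-array spread that may be purely technical. Each genotype is given without a second independent line, and the deletion cannot be told apart from other differences between the cell populations.

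REST is a zinc finger protein that sits on a long DNA element in or beside neuronal genes and, together with histone deacetylases and other cofactors, keeps them silent in cells that are not neurons. Cbln4 encodes cerebellin 4, a secreted protein of the C1q family that neurons release at synapses and that binds neurexins on the presynaptic side. Lrp11 encodes a membrane protein related to the low density lipoprotein (LDL) receptor. Its function is less well known than that of the receptors it is named after.

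Between 6300 and 9045 probes were detected per array, at a detection p-value below 0.01, and each array had a median intensity of 22.5 to 31.9. Across genes, the 2 arrays of each group correlated at r of 0.982 to 0.992. All 8 pluripotency markers on the list were detected on every day 0 array of both genotypes. The Rest probe was detected on 0 of 8 knockout arrays (intensity 1.26 to 32.0) and on 0 of 8 control arrays (4.00 to 44.0), so it does not check the genotype labels. In these bulk samples, fewer cells of a type and less RNA per cell cannot be told apart.

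The start regions of both genes are shown because a search for the letters of the REST element separated them. Cbln4 lies on chromosome 2 at chr2:172036336-172043466 on the minus strand, and Lrp11 on chromosome 10 at chr10:7589817-7624768 on the plus strand (GRCm38.p6, RefSeq). The windows run 5′ to 3′ on each gene's own strand, from 90 bases before the annotated start to 30 bases after it, at chr2:172043437-172043556 for Cbln4 and chr10:7589727-7589846 for Lrp11. Capitals mark matches to the left block of the element, TCAGCACC, or to its right block, GGACAGC, on either strand.
Cbln4: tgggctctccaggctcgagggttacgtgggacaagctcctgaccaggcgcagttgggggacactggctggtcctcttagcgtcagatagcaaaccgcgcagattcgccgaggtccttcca
Lrp11: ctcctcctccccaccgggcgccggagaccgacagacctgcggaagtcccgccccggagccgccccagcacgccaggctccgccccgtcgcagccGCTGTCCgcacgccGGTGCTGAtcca

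The Lrp11 window held both blocks, on the strand opposite to the gene, in a run of 22 bases at chr10:7589821-7589842, which lies from base 5 to base 26 after the start. The blocks were 7 bases apart and in the order of the element. Over 250 bases before to 50 after each start, the left block was present in 1.65% of the 32851 RefSeq promoters of 27025 genes, and the right block in 6.56%. The pair was present in 0.131% of promoters, and both on the same strand, in the order of the element and within 30 bases, in 0.0548%, which is 18 promoters. Neither block was in the Cbln4 promoter of that length, which says only that these letters are not in this window. A match is a description of letters and not evidence of binding.

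Those 18 promoters belonged to 18 genes, of which 3 were tested here: Lrp11, Scg2 and Actl6b. The blocks were 2 bases apart in 6 of the genes, 7 bases apart in 3 including Lrp11, and 0, 3, 8 or 9 bases apart in the others. Scg2, which encodes the secretory granule protein secretogranin II, had a fitted log2 difference of 1.74 between knockout and control at day 9. It was detected on the knockout arrays of that day alone and entered the table of tested genes only through them, so no p is given. Actl6b, a subunit of the neuronal chromatin remodelling complex, had a log2 difference of -0.06 ± 0.16 SE at day 9 (adjusted p = 0.9).

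Cbln4 was near background on every array except the knockout arrays of day 9. Its probe read -22.8 and -40.6 intensity units on the knockout arrays of day 0, against -19.4 and -26.0 on the control arrays. Values below 0 arise because the background had been subtracted. At day 3 the knockout arrays read 4.99 and 56.0, against -31.2 and -23.1 on the control arrays. None of these 8 readings was detected, and the knockout arrays of day 3 differed more from each other than either array group did at day 0.

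At day 6 the knockout arrays read 91.4 and 101, of which only the second was detected, against 14.4 and -3.78 in control, neither detected. At day 9 the knockout arrays read 2220 and 2123, both detected, against 37.4 and 46.8 in control, again below the detection threshold. The day 9 knockout arrays were the only ones on which Cbln4 was bright, and no control array of any day detected it.

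On the normalized log2 scale, the knockout minus control difference of Cbln4 ran through -0.05 (day 0), 0.62 (day 3), 1.06 (day 6) and 5.02 (day 9) (SE of the fit 0.17 each, n = 2 arrays per group). Because the control was not detected, these fitted values depend on how the background is treated, and a fold can be given only as a bound. At day 9 Cbln4 was at least 22.8-fold higher in knockout than in control, while the bound at day 6, with 1 of 2 knockout arrays detected, was 1.07-fold. No fold is given for days 0 and 3, when neither genotype detected it. Within the knockout, Cbln4 at day 9 was at least 17.7-fold higher than at day 0.

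Lrp11 was bright in the knockout on every day, while in control cells it faded. At day 0 its probe read 953 and 826 intensity units on the knockout arrays, against 427 and 350 on the control arrays. At day 3 the readings were 1333 and 1691 in knockout, against 330 and 359 in control. All 8 of these readings were detected, and the genotypes did not overlap on either day.

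The Lrp11 knockout arrays of day 6 read 2105 and 2338, against 146 and 202 in control, where the probe was still detected. At day 9 the knockout arrays read 1923 and 1424, against 30.8 and 18.9 in control, where it was no longer detected. The dimmest knockout reading of any day, 826, was above the brightest control reading of any day, 427.

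The Lrp11 difference between knockout and control grew at each step, with normalized log2 values of 0.97, 1.75, 3.60 and 4.80 over the 4 days (SE of the fit 0.17 each). These correspond to 1.97-fold, 3.37-fold and 12.1-fold higher levels in knockout at days 0, 3 and 6, and to a bound of at least 17.1-fold at day 9. Relative to its own day 0, the knockout level changed by 0.56, 1.15 and 0.76 on the log2 scale at days 3, 6 and 9.

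**Figure D1:**
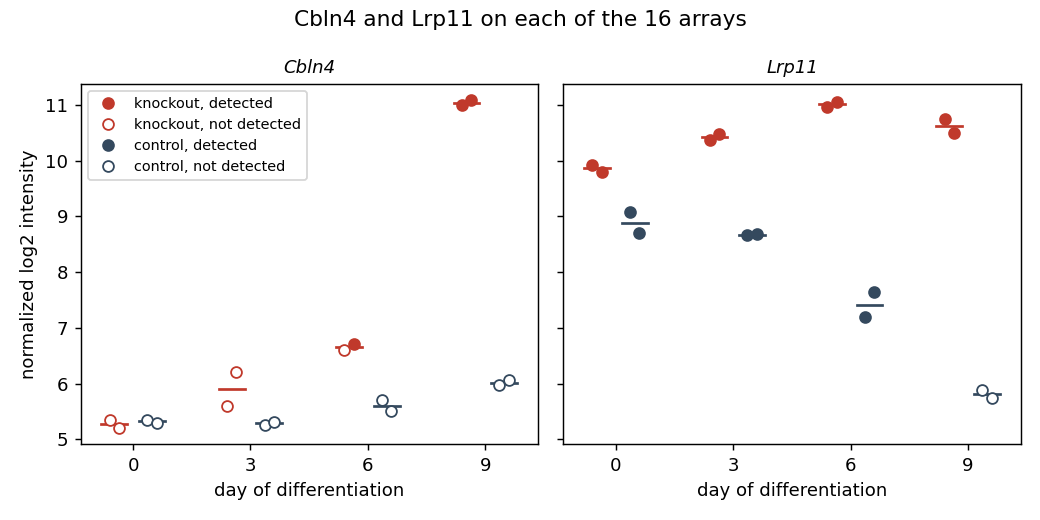
Normalized log2 intensity (y axis) of Cbln4 (left panel) and Lrp11 (right panel) by day of differentiation (x axis), 1 point per array, knockout to the left of control at each day, short lines at the mean of 2 arrays and open points where the probe was not detected. Cbln4 is filled on both arrays only in the knockout at day 9, while Lrp11 is filled on all 8 knockout arrays and falls to open points in control at day 9.

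In control cells, the Lrp11 signal went down as embryoid bodies formed. The control arrays enter the genotype differences on which both genes were chosen, so their course is described without a test. The log2 change of Lrp11 from day 0 was -0.21 ± 0.17 (SE) at day 3, -1.47 ± 0.17 at day 6 and -3.07 ± 0.17 at day 9. The level was 2.78-fold lower at day 6 than at day 0 and at least 5.14-fold lower at day 9.

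For Cbln4 in control cells, the log2 signal relative to day 0 was -0.04, 0.28 and 0.70 at days 3, 6 and 9 (SE 0.17 each), with no array detected, so no fold is given. At day 9 both knockout arrays and neither control array detected each of the genes; in control, Lrp11 had been detected until day 6 and Cbln4 on no day.

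Markers of the state of the cells moved over the same days. Over all genes tested, 1.41%, 3.94%, 1.43% and 2.69% were called higher in knockout at days 0, 3, 6 and 9, and 0.773%, 2.85%, 0.32% and 2.43% were called lower. The streak and mesoderm markers Mesp1, Mixl1, Gsc, Lhx1 and Kdr, 5 of 6 listed, were lower in knockout at day 3, with Mesp1, a regulator of cardiac mesoderm, at -3.48 ± 0.36 on the log2 scale (limma adjusted p = 1.6e-05). The mean log2 intensity of the 6 per array was 8.53 to 9.46 in knockout at day 3, against 11.0 to 11.3 in control, with 4 or 5 of them detected per knockout array and 6 per control array. Gsc was higher in knockout at day 9.

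Of 8 pluripotency markers, 0 were called between the genotypes at day 0, also at an unadjusted p below 0.05. Sox2 (log2 0.92 ± 0.22, adjusted p = 0.0191) and Utf1 (1.62 ± 0.36, adjusted p = 0.0124) were higher in knockout at day 3, Tdgf1 at day 6, and Nanog and Tdgf1 at day 9. Their mean log2 intensity per array was 10.4 in both knockout arrays of day 3, against 9.69 to 10.1 in control, and 7.33 to 7.76 in knockout at day 9, against 7.01 to 7.31 in control. In control cells 6 of the 8 were lower than at day 0 at day 3, and all 8 at days 6 and 9. The part of these markers in the Lrp11 and Cbln4 values was not tested.

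Onset was taken as the first day on which the genotypes did not overlap, both knockout arrays were detected and the log2 difference was at least 1. Cbln4 met this at day 9, since only 1 knockout array detected it at day 6. On that day it met the conditions on overlap and size. The undetected knockout array had a detection p of 0.01128, just above the threshold of 0.01. The day 9 onset of Cbln4 thus rests on this near miss. With an offset of 50 the Cbln4 difference of day 6 was 0.71, below 1. Lrp11 met the onset rule at day 3, and at day 0 it fell short only in size, by 0.03 on the log2 scale. The day 0 difference passed that limit with median centring (1.14) and without control day 0 replicate 1 (1.16), and lay below it without control day 0 replicate 2 (0.79), so that the onset of Lrp11 turns between days 0 and 3 with the setting.

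Set against each other, the log2 difference of Cbln4 was smaller than that of Lrp11 by 1.03 at day 0 (Cbln4 minus Lrp11 -1.03), by 1.13 at day 3 (-1.13) and by 2.54 at day 6 (-2.54), with an SE of 0.25 each. On these days the gap between the genes on each array did not overlap between knockout and control arrays. At day 9, when control detected neither gene, the value for Cbln4 minus Lrp11 was 0.22, and the gaps of knockout and control arrays overlapped. Ordered from the highest difference down among the 7505 genes, Cbln4 stood at ranks 4426, 332, 88 and 3 over the 4 days, and Lrp11 at ranks 43, 23, 9 and 5.

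From day 6 to day 9 the difference of Cbln4 grew by 3.96 and that of Lrp11 by 1.20 on the log2 scale. From day 3 to day 6 the order was the other way, with 0.44 for Cbln4 and 1.85 for Lrp11. These ranks and steps follow from the contrast used for the choice. Those of Cbln4 rest on undetected groups, and so do the day 9 rank of Lrp11 and its step to day 9. Across the 16 arrays the log2 levels of the genes correlated at r = 0.39. Within the 8 knockout arrays r was 0.40. The arrays differ in day and genotype, and most hold an undetected Cbln4 reading, so these values carry no test. No value is given within the control arrays, where Cbln4 was at background throughout.

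Celsr3, Disp2, Scg3 and Syt4 show what a difference present from day 0 looks like on these arrays. Celsr3 encodes a cadherin that guides axons, Scg3 a granin of secretory vesicles and Syt4 a synaptotagmin. These genes were picked with earlier results of these data known. Their fitted day 0 differences were 2.85, 2.60, 3.39 and 2.44, against -0.05 for Cbln4 and 0.97 for Lrp11. By day 9 they were 4.81, 5.35, 3.91 and 3.31, and both Cbln4 and Lrp11 lay within that range. No control array of day 9 detected any of these genes, Cbln4 and Lrp11 included. Their fitted day 9 values therefore depend on how the background is treated. In control, Disp2 and Scg3 were undetected on every day.

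**Figure D2:**
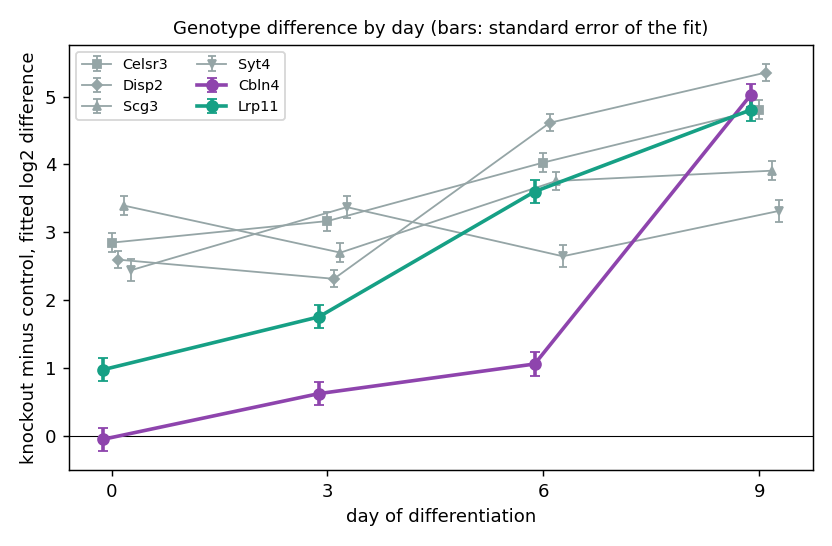
Fitted knockout minus control log2 difference (y axis) by day of differentiation (x axis) for Cbln4 and Lrp11 in colour and for Celsr3, Disp2, Scg3 and Syt4 in grey, with bars giving the standard error of the fit. Lrp11 climbs from 0.97 at day 0, Cbln4 stays at or below 1.06 until day 6, and both lie near 5 at day 9. No control array of day 9 detected any of the genes shown.

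A list of 26 known REST targets, also chosen with earlier results known, gives a wider setting; 17 of the 22 on the array were tested. Of these, 13, 15, 17 and 16 were higher in knockout over the 4 days, and 0 were lower on any day. Most of them passed the filter through the knockout arrays, where 13 to 17 of the 17 were detected, against 1 to 6 on control arrays, so this count was largely set by the filter and is a description. Of the 202 genes higher in knockout at day 9, 48 were also higher at day 0, 94 at none of the 3 earlier days, and 85 were lower in control at day 9 than at day 0. Over all genes tested, 1.41% were higher in knockout at day 0, and 34% were lower in control at day 9 than at day 0. The control arrays of day 9 enter both comparisons behind the count of 85, so that count is partly built in.

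The partners and relatives of Cbln4 were measured less widely: 5 of 17 listed cerebellin, neurexin, neuroligin and related receptor genes were tested, of 13 on the array. By limma's adjusted p, 0 were called at days 0, 3 and 6, where an unadjusted p below 0.05 was reached by 0, 1 and 1 of them. At day 9, 2 of the 5 were higher in knockout and 0 lower, with a list median of 0.09 on the log2 scale. Over all genes tested, 2.69% were called higher and 2.43% lower on that day. Cbln1, the cerebellin that joins parallel fibres to Purkinje cells in the cerebellum, read 2084 and 2243 in knockout at day 9, against 1022 and 1062 in control. The readings did not overlap, and the log2 difference was 0.97 ± 0.20 (limma adjusted p = 0.00756).

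Unlike Cbln4, Cbln1 was detected in control cells on both arrays of days 6 and 9. Its control level at day 9 was 6.69-fold above day 0 (adjusted p = 1.2e-08). Nrxn2, a presynaptic neurexin of the family that cerebellins bind, read 346 and 343 in knockout at day 9, against 173 and 170 in control, a log2 difference of 0.87 ± 0.18 (limma adjusted p = 0.0103). The calls of Cbln1 and of Nrxn2 were each lost without control day 9 replicate 1, control day 9 replicate 2 or knockout day 9 replicate 2, where the adjusted p reached 0.106 for Cbln1 and 0.114 for Nrxn2.

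Of 18 listed LDL receptor family genes and adaptors, 9 of the 12 on the array were tested, and 0 were higher in knockout on any day by limma's adjusted p, with 1, 2, 1 and 0 higher at an unadjusted p below 0.05 over the 4 days. With 1.41% to 3.94% of all genes called higher, a count of 0 among 9 is near the background. Vldlr, a lipoprotein and reelin receptor, was lower in knockout at day 3, where it read 59.4 and 74.3, against 127 and 127 in control (log2 -0.96 ± 0.18, adjusted p = 0.00341). The knockout readings were not detected there. With the mean of all detected Vldlr probes in place of the brightest, the difference was -0.35 and the call was lost (adjusted p = 0.159).

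Over the control course, 5 of the 9 LDL receptor family genes were higher at day 9 than at day 0 (Vldlr, Lrp1, Lrp4, Lrp10 and Lrp12) and 1 was lower. Change was common there: 27.2%, 32.4% and 35.2% of the 7505 genes tested were higher than at day 0 in control at days 3, 6 and 9, and 24.4%, 30.6% and 34% were lower. Vldlr stood 5.61-fold and Lrp1, an endocytic receptor, 3.62-fold above day 0. The gene that fell was Sorl1, a sorting receptor of the same family. It read 126 and 148 in control at day 9, against 545 and 896 at day 0 (log2 -2.61 ± 0.25, limma adjusted p = 2.88e-07). Sorl1 in the knockout fell by 3.08 on the log2 scale, and its genotype difference at day 9 was -0.83 ± 0.25 (adjusted p = 0.0735).

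Markers of neural progenitors and neurons were tested for 7 of 18 genes, with 17 on the array. Higher in knockout were Neurod1 and Elavl3 at days 0 and 3, Neurod1 and Sst at day 6, and Neurod1, Map2 and Sst at day 9, and 0 of the 7 were lower on any day, with 1 lower at day 0 at an unadjusted p below 0.05. The Elavl3 calls were lost in 3 of 24 alternatives on each day (adjusted p up to 0.111 at day 0 and 0.193 at day 3), and the Neurod1 call of day 0 in 6 of 24 (adjusted p up to 0.134). Elavl3 was undetected in control on every day and in both genotypes at day 3. The other listed markers on the array were not detected on both arrays of any group. Sst, which encodes the neuropeptide somatostatin, was undetected in both genotypes at days 0 and 3. It read 101 and 155 in knockout at day 6, against 18.2 and 5.98 in control, and 149 and 110 in knockout at day 9, against 16.4 and 15.7 in control. The bounds for knockout over control were 1.34-fold at day 6 and 1.36-fold at day 9. Sst entered the tested genes only through the knockout arrays of day 9, and Elavl3 only through those of day 0, so their calls are a description.

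Map2, a microtubule protein of dendrites, read 285 and 258 in knockout at day 9, against 102 and 93.6 in control (log2 1.28 ± 0.19, adjusted p = 0.000526). Neurod1, a neurogenic transcription factor, fell with the days in both genotypes, unlike Cbln4, and still read 124 and 115 in knockout at day 9, against -15.4 and -9.37 in control. Pax6 and Nes, markers of neural progenitors, had log2 differences of 0.02 (adjusted p = 0.98) and 0.49 (adjusted p = 0.123) at day 9. Neither genotype detected Pax6 on that day, so its value compares background with background. Nes was detected in both. Per array, the mean log2 intensity of the 7 markers was 6.94 to 7.00 in knockout at day 9, against 6.26 in both control arrays. On that day 5 of the 7 were detected on each knockout array and 3 on each control array. Sst and Elavl3 are among the 7, so this mean and this count are partly set by the filter. Their part in the day 9 signal of Cbln4 was not tested.

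Visceral endoderm markers moved the other way at day 9, where Afp, Alb and Apoa2 of the 5 tested were lower in knockout and 0 were higher. Alb was detected only in control at day 9 and entered the tested genes only through those arrays, so its call is a description. Over the 5 markers, mean log2 intensity per array was 8.66 to 8.79 in knockout, against 10.3 to 10.4 in control. Detected were 3 or 4 of the 5 per knockout array and 5 per control array. Alb is among the 5, so this mean and this count are partly set by the filter. Of 4 heart muscle markers, Myl2 was lower in knockout at day 9, and the list mean per array was 8.55 to 8.72 in knockout, against 9.20 to 9.31 in control. The part of these markers in the day 9 values of Cbln4 and Lrp11 was not tested.

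The 5 genes whose 16 log2 levels were most like those of Cbln4 were Fam155a (Pearson's r = 0.988), Scg2 (0.975), Lrrc24 (0.968), Cpne4 (0.966) and Scrt1 (0.956). They were picked by that likeness, so their own values are a description. Each was detected on both knockout arrays of day 9 and on no other array of the series. At day 9 Fam155a, an auxiliary subunit of a sodium leak channel, read 513 and 510 in knockout, against 49.0 and 27.9 in control, at least 5.16-fold higher. Scg2, whose promoter held both blocks of the REST element, read 144 and 119, against -25.6 and -37.1.

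Lrrc24 was at least 2.00-fold, Cpne4, a copine that binds membranes with calcium, at least 2.66-fold and Scrt1, a neuronal zinc finger repressor, at least 2.27-fold higher in knockout at day 9. None of the 5 is on the list of REST targets used here.

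The genes most like Lrp11 were Mapk8ip1 (r = 0.938), Celsr3 (0.915), Crmp1 (0.908), Diras1 (0.902) and Ddx25 (0.898), of which Celsr3 is on the list of REST targets. Mapk8ip1, a scaffold of the JNK pathway, read 849 and 688 in knockout at day 9, against 326 and 339 in control, and its log2 difference was 0.08, 0.55, 1.18 and 1.08 over the 4 days. Crmp1, a cytoskeletal protein of growing axons, had differences of 1.00, 1.86, 2.37 and 3.51. Diras1, a small GTPase, was never detected in control, and its fitted difference was 1.89, 2.59, 2.92 and 3.25 over the 4 days. Ddx25, an RNA helicase of male germ cells, was detected in both genotypes on every day, with differences of 0.68, 0.44, 1.22 and 1.68.

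**Figure D3:**
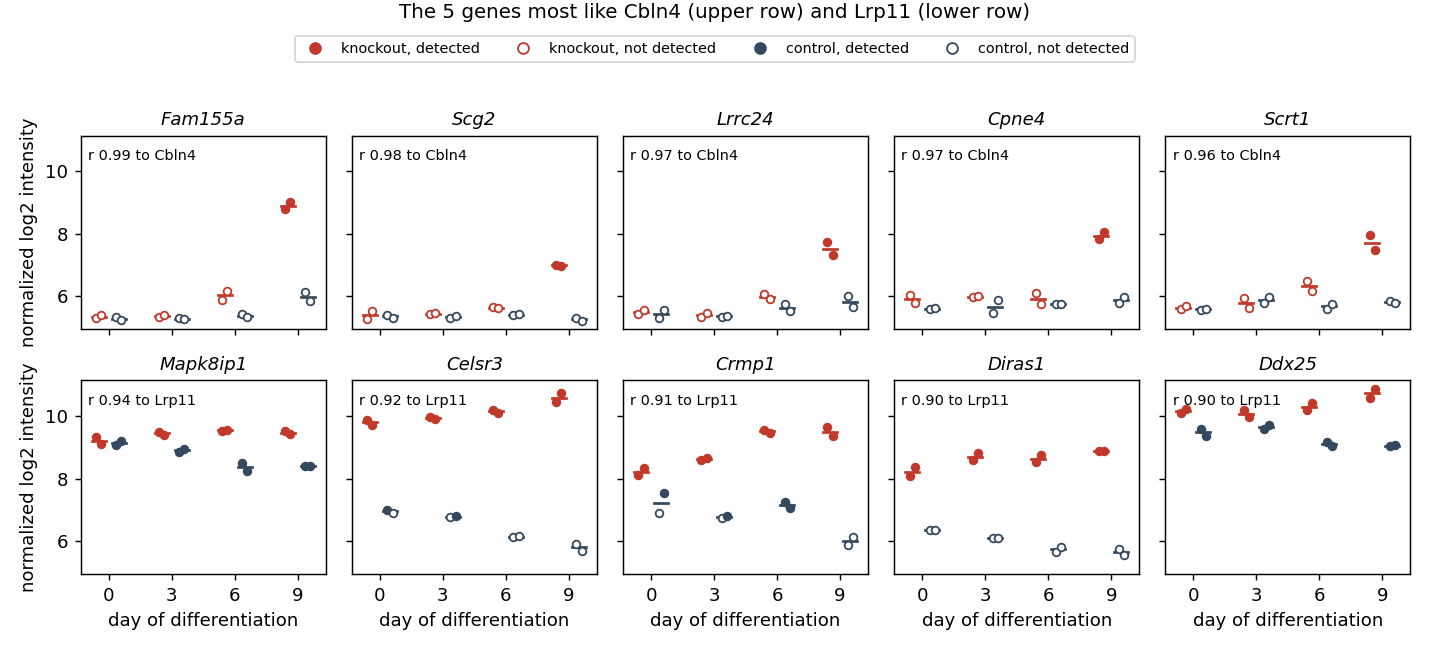
Normalized log2 intensity (y axis) by day of differentiation (x axis) of the 5 genes most like Cbln4 (upper row) and the 5 most like Lrp11 (lower row), 1 point per array, knockout to the left of control, with open points where the probe was not detected and r over 16 arrays in each panel. The upper genes are filled only in the knockout at day 9, and the lower genes stand apart by genotype on several days.

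For each gene, the 3 tested genes nearest to it on each side were examined; for all of them but Pcmt1, other protein-coding genes lie in between. The closest tested neighbour of Cbln4 was Fam210b, whose start lies 309 kb away, and its log2 difference at day 9 was 0.33 ± 0.16 (adjusted p = 0.315). Of the 6 tested neighbours of Cbln4, limma called 0 at days 0, 6 and 9, where 1, 1 and 0 had an unadjusted p below 0.05, and Bcas1 was called at day 3. With 0.32% to 3.94% of all genes called in a direction on these days, few calls among 6 genes are near the background. Bcas1, a gene of myelinating cells whose start lies 1692 kb away, read 306 and 382 in knockout at day 3, against 140 and 148 in control (log2 0.91 ± 0.15, adjusted p = 0.00166). It was detected in neither genotype at days 6 and 9, and the day 3 call was lost without normexp and on the authors' normalized values (adjusted p up to 0.234).

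Pcmt1, a protein repair enzyme whose start lies 38.0 kb from that of Lrp11, had log2 differences of -0.37, -0.30, -0.17 and -0.35 over the 4 days. Limma called 0 of the 6 tested neighbours of Lrp11 on each of the 4 days, with 1, 1, 1 and 2 at an unadjusted p below 0.05 and a lowest adjusted p of 0.127. With 0.32% to 3.94% of all genes called in a direction on these days, a count of 0 among 6 is near the background.

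**Figure D4:**
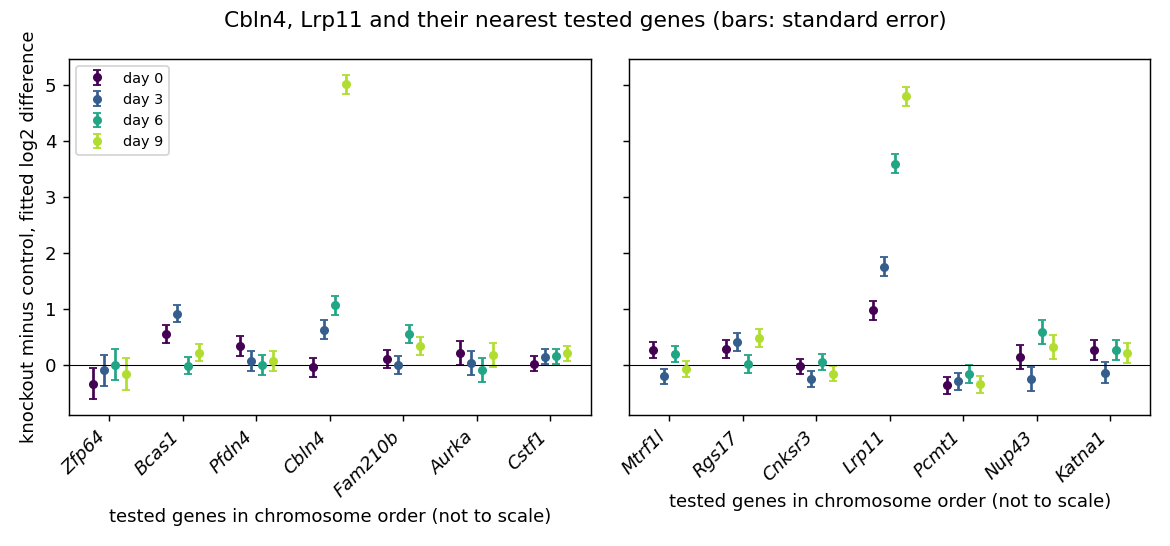
Fitted knockout minus control log2 difference (y axis) at days 0, 3, 6 and 9 for Cbln4 (left panel) and Lrp11 (right panel) in the middle of their 3 nearest tested genes on each side, in chromosome order and not to scale (x axis), with bars giving the standard error of the fit. The neighbours lie between -0.4 and 1 on every day, while Cbln4 reaches 5.02 and Lrp11 4.80 at day 9.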

How the data were processed

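The deposited table gave, per the file headers, an intensity and a detection p-value for each probe and array. The deposited intensity values were not normalized between arrays and had the background subtracted, since 25.5% to 28.0% of them per array are negative. The deposited p-value moves in steps that match 798 negative control probes. A second table of intensity values that the authors normalized, per its file headers, served as an alternative. For the scanner software, no name was given in the sources used here.

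Intensities were processed with neqc of limma 3.58.1 (R 4.3.3, statmod 1.5.0): normexp with negative controls inferred from the detection p-values, an offset of 16, quantile normalization and log2. The offset makes fold changes of dim genes too small. Detection below 0.01 on both arrays of at least 1 group kept 10241 probes, and the brightest probe of each gene was used, giving 7505 genes. The platform annotation named 1 gene for 23978 probes and none for 1719.

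All 16 arrays entered 1 limma fit (lmFit, eBayes) with a mean per group, 8 residual and 6.40 prior degrees of freedom. The threshold for a call was 0.05 after Benjamini-Hochberg adjustment, done per comparison over all genes tested, and every adjusted p in the text is from limma. The fit was tested on simulated data with known changes. Where a group detected a gene on no array, the fold is a bound: the mean of the brighter group over the mean, in the dimmer one, of each array's lowest detected signal or, if higher, the gene's own. Promoter letters and positions are from RefSeq (GRCm38.p6), matched by symbol for both genes. The number of arrays, 2 per group, limits the precision.

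The genes, the lists and the tests were chosen with earlier results of these data known. Named genes were Cbln4 and Lrp11, list members called in a comparison (up to 6 per list and day), the 3 nearest tested genes on each side, the 5 genes with the highest Pearson's r to each, and Celsr3, Disp2, Scg3 and Syt4. Alternatives were median centring, no normexp, an offset of 50, no filter on dim probes, the mean of the detected probes, the authors' normalized values, a replicate block, fits to the arrays compared, and leaving out each array.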

Additional observations from a re-analysis of the deposited data

Results flagged for a closer look

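The genotype difference of Cbln4 and Lrp11 at the later days stood apart from that at day 0, by the fit's term for day and genotype. Both genes were chosen on this contrast, so no p is given for them. For Cbln4 the knockout minus control difference was larger than at day 0 by 1.11 at day 6 and by 5.07 at day 9 on the log2 scale. For Lrp11 it was larger than at day 0 by 2.63 at day 6 and by 3.83 at day 9. For Vldlr the difference at day 3 minus that at day 0 was -1.08 (limma interaction term, adjusted p = 0.0334). Vldlr was not detected in knockout at day 3. With the mean of its detected probes, its day 3 difference was -0.35 and the day 3 call was lost.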

How the results depend on the processing

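The direction of every Cbln4 and Lrp11 difference between knockout and control at days 3, 6 and 9 was kept under each alternative. Several of these could not change it. Each gene has 1 probe, so dropping the filter on dim probes or averaging the detected probes returns the same values. A replicate block and a fit to only the arrays compared leave the group means as they are. The size for Cbln4, dim or undetected in control, moved with the background treatment. At day 3, where the difference was 0.62, it was 1.17 without normexp, 0.37 with an offset of 50 and 1.26 on the authors' normalized values. At day 6 it was 1.28 with median centring, 2.20 without normexp, 0.71 with an offset of 50 and 2.24 on the authors' values. At day 9 these last settings gave 5.26, 4.44 and 5.26 for Cbln4, and 5.33, 4.15 and 5.33 for Lrp11. An offset of 50 gave Lrp11 a difference of 3.36 at day 6. Leaving out 1 array at a time, Lrp11 ranged from 0.79 to 1.16 at day 0 (without control day 0 replicate 2 and replicate 1) and from 3.38 to 3.83 at day 6, and Cbln4 from 0.32 to 0.93 at day 3. The Lrp11 change in control cells was below 0 at days 6 and 9 under every alternative, and at day 3 it was 0.03 with median centring, against -0.21. The number of genes called in knockout minus control was 164, 510, 131 and 384 over the 4 days. With only the arrays compared it was 36, 294 and 76 at days 0, 3 and 6. Leaving out 1 array it ranged from 71 to 282 at day 0, from 210 to 571 at day 3, from 88 to 279 at day 6 and from 209 to 425 at day 9. The share of calls that were higher in knockout was 64.6% at day 0 and 84.3% with median centring, and 52.6% at day 9 and 80.9% with median centring, which moved the median of all genes by 0.13 and 0.17 on the log2 scale. Of the calls checked for other named genes, 2178 values over the alternatives kept their side of the threshold, 78 did not and 0 reversed. Those calls were between knockout and control, for REST targets, neural markers, relatives of both genes, tested neighbours and the genes most alike. Calls of pluripotency, streak and mesoderm, visceral endoderm and heart muscle markers, and calls over the control course, were not checked in this way. The array numbers did not pair the samples, since deviations of same-numbered knockout and control arrays correlated at -0.12, 0.06, -0.18 and 0.07 over the 4 days. A replicate block cannot move a difference here (Lrp11 at day 0 0.97), since each group holds 1 array of each number. It can change only the spread and the calls, which were 145, 498, 124 and 347. The causes of these changes were not tested.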
